A study of Mus musculus with 15 samples.

Results

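The aminoacyl-tRNA synthetases are the enzymes that join each amino acid to its transfer RNA. Their mRNAs were followed here in primary mouse hepatocytes during the first day of culture. The members were a list of 36 gene symbols: 20 cytosolic enzymes, and 16 mitochondrial enzymes whose symbols end in 2. A member was measured by the probe set that the platform annotation gives to its symbol alone, and where a gene had several, by the one with the largest SD over the 15 arrays. This found 35 of the 36, 19 cytosolic and 16 mitochondrial, among 18193 genes with such a probe set. Dars, the cytosolic enzyme for aspartate, had no probe set carrying its symbol alone and was not analysed here. All 35 passed a filter on background signal that left 12423 genes for testing. For Mars2 the probe set with the largest SD was a background one, and the other probe set was used.

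The cells came from male C57BL/6 mice, the only strain and sex in the study, whose ages are not given in the sources used here. RNA had been hybridised to 15 Affymetrix arrays in 5 groups of 3 independent biological replicates. The groups were freshly isolated cells (labelled t0), cells cultured for 4 h or 24 h as a monolayer in a tissue culture dish (TCD), and cells cultured for 4 h or 24 h as aggregates in a rotating wall vessel (RWV), a slowly turning culture chamber. Every value below is on the log2 scale with the fresh median of its probe set subtracted, so it is a change from fresh cells and says nothing of the level of a gene, and no gene's level can be set against another's.

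A cell needs charged tRNAs in both compartments where it makes protein. The cytosolic synthetases serve translation of nuclear mRNAs, and 8 of the 20, among them the fused glutamate and proline enzyme Eprs, are held in a multisynthetase complex by small scaffold proteins. The mitochondrial synthetases are encoded in the nucleus, are imported, and serve the translation of the respiratory chain subunits encoded by mitochondrial DNA. Gars and Kars each encode both the cytosolic and the mitochondrial enzyme, and were kept with the cytosolic ones because of their names. Many cytosolic synthetase genes are known targets of ATF4, the transcription factor of the integrated stress response, which binds with C/EBP proteins to a composite promoter element.

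That element is why promoters are shown. The core searched was TGATGNAA, on both strands (TTNCATCA in reverse, a different run of letters, so that no match is counted in both directions). The window ran from 250 bases before to 50 bases after a listed start site of each gene on GRCm38.p6. For some members, Aars, Eprs and Yars among them, that site lies inside the RefSeq gene span, downstream of its outermost start. Of the 35 members, 26 were matched by Entrez gene number, 12 cytosolic and 14 mitochondrial. A match was found in 5 of the 12 cytosolic promoters and in none of the 14 mitochondrial ones, beside 1219 of 27025 genes (4.51%) in the whole table. The matches of 4 of the 5 are printed with their surroundings on the gene's own strand, match in capitals; a match describes the letters and is not shown to be a binding site, and its absence says only that these letters are not in the window. The matches of Gars and Tars lie before the start site, and those of Yars and Iars lie just after it.
Gars, chr6:55037960-55037989, plus strand: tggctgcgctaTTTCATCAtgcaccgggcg
Tars, chr15:11399655-11399684, minus strand: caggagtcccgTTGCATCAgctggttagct
Yars, chr4:129189895-129189924, plus strand: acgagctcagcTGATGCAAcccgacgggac
Iars, chr13:49682126-49682155, plus strand: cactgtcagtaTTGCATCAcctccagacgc

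The Gars match begins 30 bases before the start site. Gars had the largest rise of all members at 24 h. Sars, with the next largest in TCD at 24 h, had no match in its window. Cars, Hars, Lars, Nars, Rars, Vars and Wars had no promoter to search, nor did Hars2 and Pars2. Whether a match goes with a rise was not tested. The 150 bases before the start of Gars are given for context, with the same match in capitals.
Gars, chr6:55037851-55038000, plus strand: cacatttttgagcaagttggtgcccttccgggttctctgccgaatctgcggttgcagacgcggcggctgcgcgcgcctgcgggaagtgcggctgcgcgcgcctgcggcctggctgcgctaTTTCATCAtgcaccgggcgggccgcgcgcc

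A pair of arrays stood apart and touch the members. On 1 of the TCD arrays at 4 h, replicate 2, the median change of the 18 spiked hybridisation controls was 1.08. The other fresh and 4 h arrays ranged from -0.25 to 0.18. All arrays at 24 h were lower, from -0.73 to -0.40. Rescaling the arrays on these controls was not tested. A fit of array weights gave TCD replicate 2 at 4 h a weight of 0.171. This array was the lowest of its group in 13 of 19 cytosolic and 10 of 16 mitochondrial synthetases. Fresh replicate 3, with a weight of 0.439, was the lowest fresh array in 17 of 19 cytosolic synthetases, and in 5 of 16 mitochondrial ones. Some of the counts that rest on these arrays are given with and without them.

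Cytosolic and mitochondrial synthetase mRNAs parted soon after plating. On the deposited scale the cytosolic median was above fresh cells at 4 h and higher again at 24 h in both vessels (with arrays centred on reference genes, 0.31 then 0.22 in TCD and 0.33 then 0.51 in RWV against fresh cells), while most mitochondrial members were at or below their fresh values. On single arrays, the median over the 19 cytosolic members was -0.06 ± 0.22 (SD, n = 3 throughout) in fresh cells, 0.37 ± 0.21 in TCD and 0.57 ± 0.03 in RWV at 4 h, and 0.79 ± 0.14 in TCD and 1.07 ± 0.08 in RWV at 24 h. The median over the 16 mitochondrial members was 0 on each fresh array, -0.38 ± 0.05 and -0.27 ± 0.06 at 4 h, and -0.28 ± 0.08 and -0.09 ± 0.05 at 24 h, in TCD and RWV. Every cultured array had a cytosolic median above 0.16 and a mitochondrial median below -0.05. The median of all genes tested stayed between -0.09 and 0.01 on the 15 arrays.

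**Figure D1:**
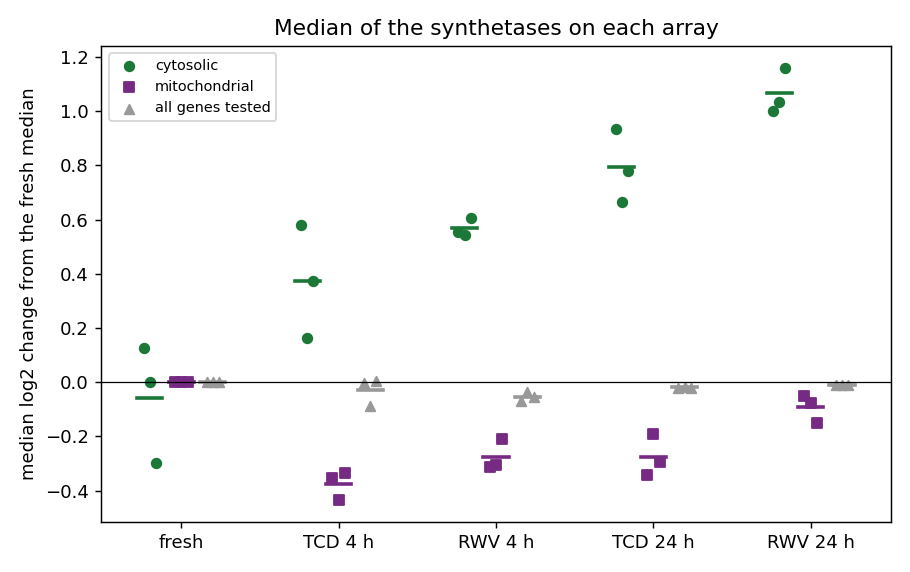
Median log2 change from the fresh median over the 19 cytosolic synthetases (circles), the 16 mitochondrial ones (squares) and all 12423 genes tested (triangles), 1 point per array, with a bar at the mean of the 3 arrays of a group. The cytosolic points climb from a mean of -0.06 in fresh cells to 1.07 in RWV at 24 h, and the mitochondrial points of cultured cells all lie below 0.

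Group means were compared with limma, and a gene was called where the Benjamini-Hochberg adjusted p over all 12423 genes was below 0.05. The comparisons of TCD and of RWV with fresh cells share the fresh arrays, so their values are set side by side and are not independent. The members are 35 of 12423 genes tested. At 4 h in TCD, 14 of 35 members were called (25.5% of all genes were), and 18 of 35 in RWV (29.6% of all genes). At 24 h, 23 of 35 were called in TCD (65.7%, beside 56.2% of all genes) and 24 in RWV (68.6%, beside 49.9%). Both the share called and the direction differed between the compartments at 24 h. The share was 73.7% of cytosolic and 56.2% of mitochondrial members in TCD, and 94.7% and 37.5% in RWV. At 4 h in TCD, 9 of 19 cytosolic members were called higher and none lower, where 9.54% of all genes were called higher and 15.9% lower. At 4 h in RWV, 11 were called higher and none lower, beside 15.1% and 14.4% of all genes. By 24 h the count was 14 higher in TCD and 18 higher in RWV, with none lower in either, beside 32.8% and 30.7% of all genes called higher and 23.4% and 19.2% called lower. Of the cytosolic members called, 8 in TCD and 12 in RWV differed at least 2-fold at 24 h. The median over the 19 was 0.84 in TCD and 1.11 in RWV at 24 h, against -0.01 and 0.01 over all genes. Of the 16 mitochondrial members, none was called higher and 5 lower in TCD at 4 h, and none higher and 7 lower in RWV at 4 h. At 24 h, 3 were called higher and 6 lower in TCD, and 2 higher and 4 lower in RWV. The mitochondrial share called at 24 h thus equals that of all genes in TCD (56.2%). In RWV it is below it (37.5%, beside 49.9%). Without fresh replicate 3 the cytosolic counts were 5, 10, 12 and 17 in the same order, and the TCD count at 4 h was also 5 without TCD replicate 1 or 3. With only the 6 arrays compared in the fit, 5 of 35 members in place of 14 were called in TCD at 4 h. The mitochondrial count lower in TCD at 4 h was 3 without TCD replicate 2. In RWV at 4 h it was 3 without fresh replicate 1 and 4 without RWV replicate 2. In RWV at 24 h the count lower was 2 without fresh replicate 1 or RWV replicate 3, and the count higher was 1 without fresh replicate 2 or RWV replicate 3.

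The split depends on how arrays are scaled. With each array centred on 7 reference genes, the median of all genes moved to -0.63 in TCD and -0.60 in RWV at 24 h, and to -0.15 and -0.38 at 4 h; 4 of the 7 reference genes were themselves called higher and 2 lower at 24 h in each vessel. Over all 35 members, the split of 17 higher and 6 lower in TCD at 24 h became 9 and 14, and that of 20 and 4 in RWV became 11 and 12; at 4 h in RWV 11 and 7 became 8 and 11. The cytosolic set then counted 8 higher and 2 lower in TCD and 10 higher and none lower in RWV at 24 h, with medians of 0.22 and 0.51. The mitochondrial set counted 1 higher and 12 lower in each vessel, with medians of -0.90 and -0.70. With centring most genes were called lower at 24 h. Of all 12423 genes, 2557 were then called higher and 6739 lower in TCD, and 2086 and 6480 in RWV. At 4 h in RWV the counts of all genes with centring were 1459 higher and 5340 lower. Centring subtracts the same value from every gene of an array, so it leaves the gap between the compartments as it was.

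**Figure D2:**
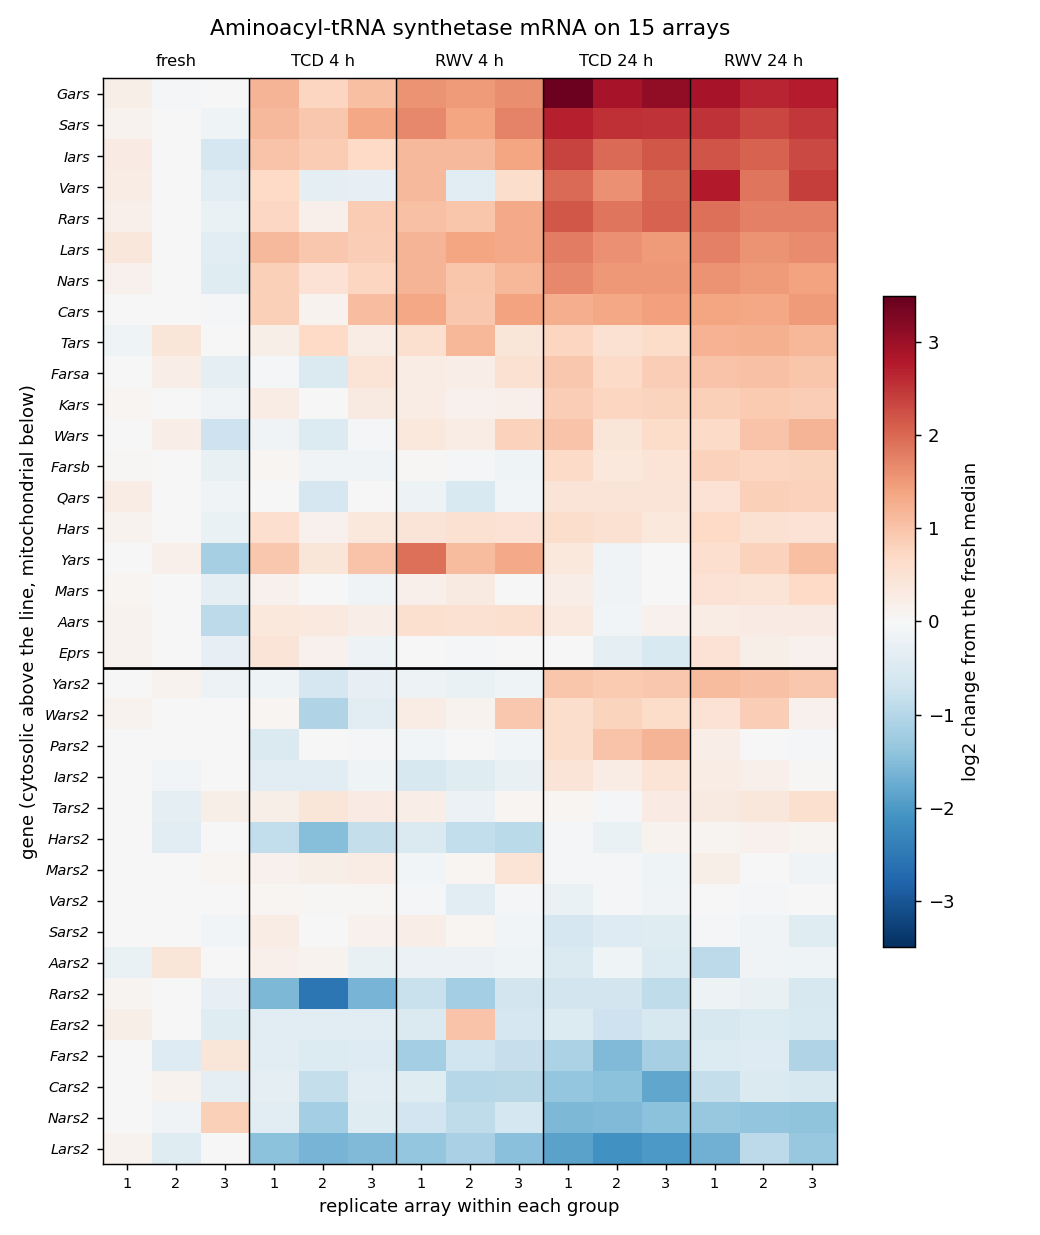
Log2 change from the fresh median of 35 synthetases (rows, cytosolic above the black line and mitochondrial below, ordered by their mean change at 24 h) on 15 arrays (columns, 3 replicates in each of 5 groups). Red is above and blue below the fresh median; Gars, Sars, Iars and Vars are reddest at 24 h, Lars2 and Nars2 bluest, and Pars2 is red in TCD at 24 h alone (0.63 to 1.18).

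Gars, which charges glycine, showed the largest change among the cytosolic enzymes. Its values were 0.20, -0.05 and 0 on the fresh arrays, 1.20, 0.77 and 1.04 in TCD at 4 h, 1.56, 1.5 and 1.63 in RWV at 4 h, 3.44, 2.89 and 3.11 in TCD at 24 h, and 2.88, 2.66 and 2.74 in RWV at 24 h. Fresh arrays, 4 h arrays and 24 h arrays do not overlap. The rise over fresh cells at 24 h was 3.10 ± 0.15 (SE) in TCD, an 8.54-fold difference (limma adjusted p = 6.69e-09), and 2.71 ± 0.15 in RWV (6.55-fold, adjusted p = 2.70e-08). Sars, the serine enzyme, read 0.12, 0 and -0.15 in fresh cells, 1.13, 0.93 and 1.36 in TCD and 1.68, 1.37 and 1.75 in RWV at 4 h, then 2.71, 2.55 and 2.54 in TCD and 2.52, 2.34 and 2.48 in RWV at 24 h. It was thus high in every culture, and higher at 24 h than at 4 h in each vessel without overlap. At 24 h it was 6.11-fold above fresh cells in TCD (adjusted p = 1.13e-08) and 5.49-fold in RWV (adjusted p = 2.59e-08).

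Vars, the valine enzyme, rose late. It read 0.26, 0 and -0.40 in fresh cells, 0.71, -0.33 and -0.27 in TCD and 1.13, -0.36 and 0.61 in RWV at 4 h, 1.98, 1.59 and 2.0 in TCD and 2.78, 1.86 and 2.42 in RWV at 24 h. At 4 h both cultures overlapped the fresh arrays, and at 24 h neither did. Its difference from fresh cells was 1.90 ± 0.38 in TCD (adjusted p = 9.56e-04) and 2.40 ± 0.38 in RWV (adjusted p = 2.07e-04) at 24 h.

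The enzymes for isoleucine (Iars), arginine (Rars), leucine (Lars), asparagine (Nars) and cysteine (Cars) make up the rest of the strong group. At 24 h they stood between 1.35 and 2.28 above fresh cells, from Cars in TCD to Iars in RWV. These 5 together with Gars, Sars and Vars were called higher at 24 h in both vessels under every alternative run (13 for Sars and 14 for each of the others: other processing settings, centring on reference genes among them, and each array of the comparison left out). Iars, Rars, Lars, Nars and Cars were also called at 4 h in both vessels, at 0.63 to 0.97 in TCD and 1.12 to 1.32 in RWV. In TCD at 4 h, Cars lost its call without any 1 fresh array or TCD replicate 1 or 3 (0.49 to 0.70), and Rars lost it without fresh replicate 3 or TCD replicate 1 or 3 (0.48 to 0.56).

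The remaining cytosolic members moved less. Kars, the lysine enzyme, was called at 24 h and not at 4 h, at 0.81 in TCD (0.19 and not called with centring) and 0.88 in RWV. So were both subunits of the phenylalanine enzyme, Farsa (0.84 and 1.02) and Farsb (0.58 and 0.83, the former turning to -0.04 with centring). Probe sets of Farsa and Farsb without shared sequence were not called at 24 h, at 0.01 and 0.09 for Farsa and 0.47 and 0.07 for Farsb. Hars, for histidine, stood at 0.40 to 0.62 in all 4 comparisons and was called in each, but at 24 h turned to -0.07 in TCD and read 0.0070 in RWV, not called, with centring. Its TCD call at 4 h was lost without fresh replicate 2 (0.42) or 3 (0.30) or TCD replicate 1 (0.30) or 3 (0.40). With centring Hars was not called at 4 h in either vessel. Tars, for threonine, was called in RWV at 4 h (0.63) and in both vessels at 24 h (0.54 in TCD, 1.11 in RWV), the TCD value turning to -0.07 with centring. The call in RWV at 4 h was lost without fresh replicate 1 (0.50) or 3 (0.58) or RWV replicate 2 (0.40), and that in TCD at 24 h without fresh replicate 1 (0.42) or 3 (0.50) or TCD replicate 1 (0.48) or 3 (0.55). Centring also ended the call of Tars in RWV at 4 h. Wars, for tryptophan, a gene also known to be induced by interferon, was called at 24 h only (0.85 in TCD, lost without fresh replicate 3 at 0.57 or TCD replicate 1 at 0.69, and 1.11 in RWV). Of its 4 probe sets the 3 of shared sequence rose in both vessels, and the remaining one read -0.14 in TCD and 0.14 in RWV, so its direction is uncertain. Qars, for glutamine, was called in RWV at 24 h (0.67, adjusted p = 0.00663) by 2 of its 4 probe sets while the others read -0.13 and -0.35, and is uncertain too. Yars, for tyrosine, had its highest values at 4 h. It was called then in both vessels (1.12 in TCD, 1.78 in RWV) and in RWV at 24 h (1.15), and read 0.41 in TCD at 24 h (adjusted p = 0.321). Its difference between 24 h and 4 h was not called (-0.71 in TCD, -0.63 in RWV). Its TCD call at 4 h was lost without fresh replicate 3 (0.70) and without TCD replicate 1 (1.04) or 3 (1.01). Aars, for alanine, was called in RWV at 4 h (0.82) and at 24 h (0.55), the latter turning to -0.06 with centring and not called without fresh replicate 3 (0.23) or any 1 of RWV replicates 1 (0.57), 2 (0.55) and 3 (0.55). The call of Aars at 4 h was lost with centring, without shared-sequence probe sets and with only the arrays compared. Mars, for methionine, was called against fresh cells in RWV at 24 h alone (0.64, adjusted p = 0.00198; 0.03 and not called with centring), and Eprs in none of the 4 (-0.24 to 0.34).

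Calls were spread over both catalytic classes, and inside and outside the complex. Synthetases fall into a pair of unrelated folds, class I and class II. Of 9 members in each class, leaving aside Eprs, which holds both, 6 of class I and 8 of class II were called higher in TCD at 24 h, and 9 and 9 in RWV. Of the 7 measured members of the multisynthetase complex 4 were called higher in TCD and 6 in RWV at 24 h, and of the 12 outside it 10 and 12. Of all genes, 32.8% were called higher in TCD and 30.7% in RWV at 24 h. The medians of the complex members were 0.81 and 0.88, and those of the others 0.85 and 1.13.

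**Figure D3:**
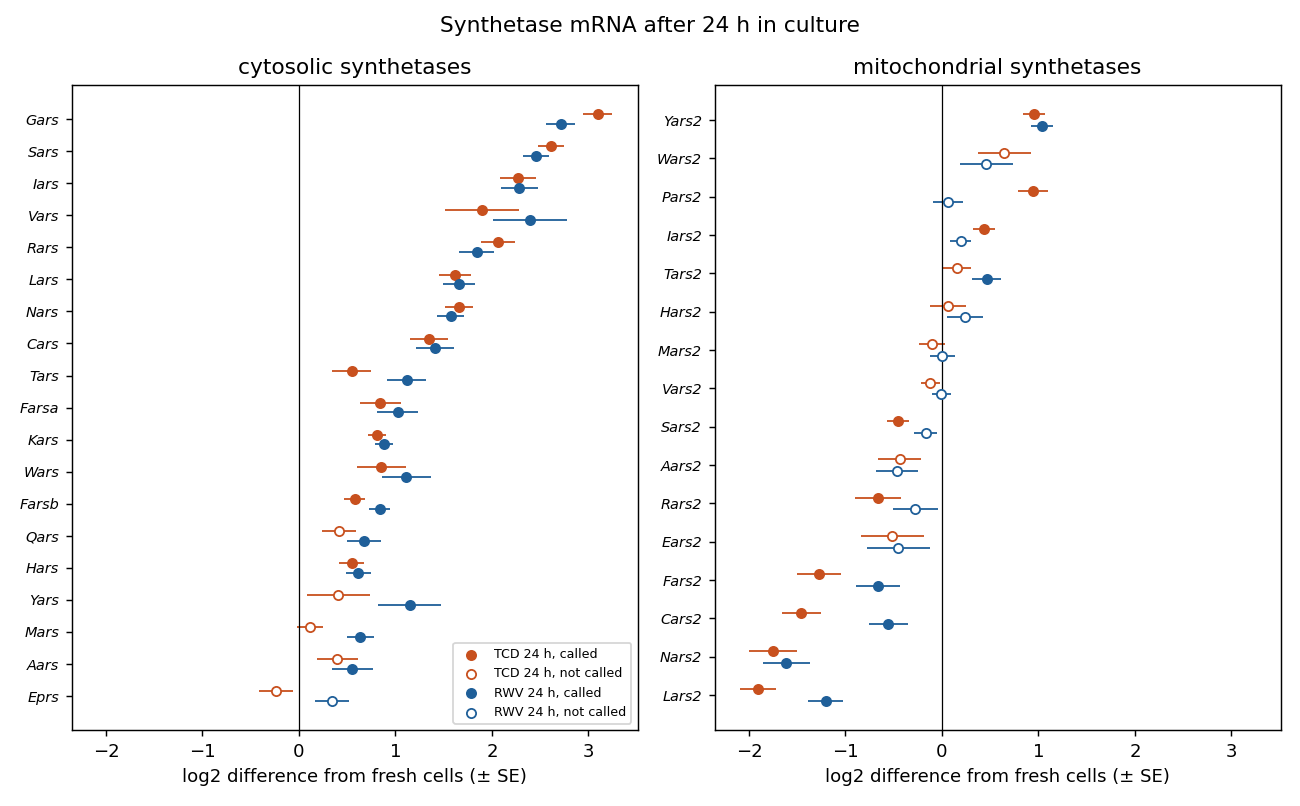
Log2 difference from fresh cells after 24 h (± SE from the limma fit, 3 arrays per group) for each cytosolic (left) and mitochondrial (right) synthetase, in TCD (orange) and RWV (blue). Filled points were called at an adjusted p below 0.05: 14 and 18 cytosolic members to the right of 0, and 9 and 6 mitochondrial members on both sides of 0; on arrays centred on reference genes Farsb, Hars, Tars and Iars2 in TCD, and Aars and Tars2 in RWV, change side.

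Among the mitochondrial enzymes Lars2, for leucine, had the largest called fall, in TCD at 24 h; Rars2 stood further below fresh cells than Lars2 in TCD at 4 h, and Nars2 did in RWV at 24 h. Its values were 0.11, -0.42 and 0 in fresh cells, -1.45, -1.62 and -1.56 in TCD and -1.36, -1.15 and -1.45 in RWV at 4 h, -1.88, -2.12 and -2.02 in TCD and -1.68, -0.93 and -1.32 in RWV at 24 h. All 12 cultured arrays lie below the 3 fresh ones. The difference from fresh cells was -1.90 ± 0.18 in TCD at 24 h (adjusted p = 2.09e-06) and -1.20 ± 0.18 in RWV (adjusted p = 1.39e-04). A further Lars2 probe set read -0.53 in each vessel at 24 h and was not called, so the size of the fall rests on 1 probe set.

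Nars2, for asparagine, read 0, -0.13 and 0.85 in fresh cells, -0.40, -1.19 and -0.42 in TCD and -0.67, -0.89 and -0.61 in RWV at 4 h, -1.56, -1.54 and -1.43 in TCD and -1.33, -1.38 and -1.40 in RWV at 24 h. The fresh arrays are the scattered ones here, with replicate 3 high, and all cultured arrays lie below them. It fell by 1.75 on the log2 scale in TCD (adjusted p = 5.66e-05) and by 1.61 in RWV (adjusted p = 1.51e-04) at 24 h; its call in TCD at 4 h (-0.91) was lost without fresh replicate 3 (-0.61) or TCD replicate 2 (-0.65). A further Nars2 probe set was not called against fresh cells. It read 0.48 in TCD and -0.23 in RWV at 4 h, the former in the opposite direction, and -0.31 and -0.28 at 24 h. With the mean of the probe sets the TCD value at 4 h was -0.22 (adjusted p = 0.368).

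Rars2, for arginine, was lower than in fresh cells at 4 h. From 4 h to 24 h it rose in TCD (1.18, called), and in RWV the change of 0.53 was not called. It read 0.10, 0 and -0.30 in fresh cells, -1.57, -2.52 and -1.63 in TCD and -0.78, -1.19 and -0.64 in RWV at 4 h, -0.64, -0.64 and -0.90 in TCD and -0.19, -0.26 and -0.57 in RWV at 24 h. The lowest value is from the array that stands apart, TCD replicate 2, but all TCD arrays at 4 h lie below all others. It was 3.58-fold lower than in fresh cells in TCD at 4 h (-1.84 ± 0.24, adjusted p = 1.21e-04). The difference in TCD at 24 h was -0.66 (adjusted p = 0.0302), a call lost without fresh replicate 1 (-0.58) or 2 (-0.63) or TCD replicate 2 (-0.71) or 3 (-0.58). Hars2, for histidine, likewise was lower at 4 h in both vessels (-0.93 in TCD, -0.64 in RWV). It read 0.06 and 0.24 at 24 h on the deposited scale. Centring lowers the 24 h values of Rars2 and Hars2 against fresh cells, so how near they came to fresh cells depends on the scaling. The RWV call of Hars2 at 4 h was lost without fresh replicate 1 (-0.57) or 3 (-0.58) or RWV replicate 2 (-0.60) or 3 (-0.56).

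A few mitochondrial members went the other way. Yars2, for tyrosine, read 0, 0.14 and -0.17 in fresh cells, -0.16, -0.58 and -0.30 in TCD and -0.19, -0.22 and -0.16 in RWV at 4 h, 0.97, 0.91 and 0.95 in TCD and 1.12, 1.01 and 0.95 in RWV at 24 h. All 6 arrays at 24 h lie above all 9 others. The rise over fresh cells was 0.96 ± 0.11 in TCD (adjusted p = 1.21e-05) and 1.04 ± 0.11 in RWV (adjusted p = 9.03e-06). Of its 2 probe sets, 1 was called higher in TCD at 24 h and 2 in RWV. Its small difference in TCD at 4 h (-0.33, adjusted p = 0.0474) was called although the groups overlap, and was lost without fresh replicate 1 (-0.33) or 2 (-0.26) or TCD replicate 2 (-0.21) or 3 (-0.36). Tars2, for threonine, read 0, -0.33 and 0.20 in fresh cells, 0.20, 0.41 and 0.28 in TCD and 0.24, -0.21 and 0.07 in RWV at 4 h, 0.08, -0.04 and 0.28 in TCD and 0.31, 0.39 and 0.56 in RWV at 24 h. It was called in RWV at 24 h only (0.46, adjusted p = 0.0246), turned to -0.15 with centring, and was not called without fresh replicate 2 (0.32) or RWV replicate 3 (0.39). Iars2, for isoleucine, was called lower in RWV at 4 h (-0.38) and higher in TCD at 24 h (0.44, but -0.18 with centring). The former call was lost without fresh replicate 1 (-0.36) or 3 (-0.36) or RWV replicate 1 (-0.31) or 2 (-0.37). Sars2 was lower in TCD at 24 h (-0.45, adjusted p = 0.00488). Aars2, Ears2, Mars2 and Vars2 were called in none of the 9 comparisons, and Wars2 only between 4 h and 24 h in TCD.

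Pairs of enzymes for the same amino acid show the divergence amino acid by amino acid. There are 17 such pairs; Eprs enters with both Ears2 and Pars2, and Fars2 with both Farsa and Farsb. The change from fresh cells was greater for the cytosolic partner in 15 pairs in TCD and 16 in RWV at 4 h, and in 15 and 17 at 24 h. The median gap at 24 h was 1.83 in TCD and 1.49 in RWV. In 7 pairs in TCD the cytosolic enzyme was called higher and the mitochondrial one lower: Cars, Farsa, Farsb, Lars, Nars, Rars and Sars with their partners. This held for 5 pairs in RWV at 24 h. The widest gaps were those of asparagine and leucine, and Yars with Yars2 was the pair in which both were called higher in RWV at 24 h with the smallest gap. On the deposited scale no cytosolic member was called lower than in fresh cells by the 1 probe set used for it. No pair could therefore hold a cytosolic enzyme called lower with a mitochondrial one called higher. With every probe set tested, 1 of the 4 of Qars was called lower in RWV at 4 h.

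**Figure D4:**
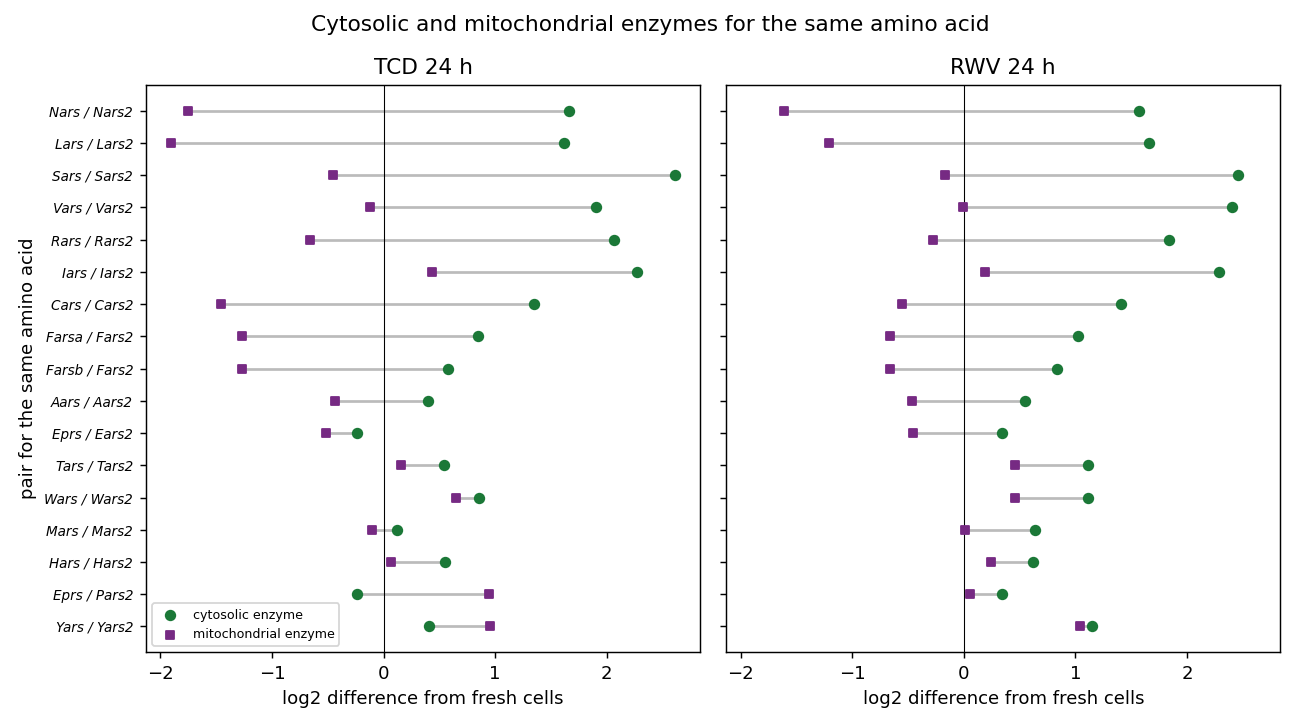
Log2 difference from fresh cells at 24 h in TCD (left) and RWV (right) for the cytosolic (circle) and mitochondrial (square) enzyme of 17 pairs, joined by a line and ordered by the gap in RWV. The circle lies to the right of the square in 15 pairs in TCD and in 17 in RWV; the exceptions in TCD are Yars with Yars2 and Eprs with Pars2.

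From 4 h to 24 h, the cytosolic calls in both vessels were all higher, on the scale as deposited. In TCD 13 of 19 were called higher at 24 h than at 4 h and none lower, beside 36.1% and 19.5% of all genes (55.6% either way). In RWV 10 were called higher and none lower, beside 26.4% and 15.1% of all genes (41.6% either way). With centring, the cytosolic counts were 6 higher and 5 lower in TCD and 7 higher and 2 lower in RWV, and the 35 members split 10 higher and 15 lower in TCD, in place of 19 and 5, and 9 and 6 in RWV, in place of 13 and 0. Of all 12423 genes, 2857 were called higher and 5957 lower in TCD with centring, and 2201 and 3523 in RWV. On the deposited scale Gars moved by 2.14 in TCD and 1.19 in RWV, and Sars by 1.46 and 0.85. On that scale the mitochondrial set split in TCD, with 6 of 16 called higher, near the share of all genes, and 5 lower. Yars2 (1.29), Rars2 (1.18), Wars2 (1.14) and Pars2 (1.12) led the former, and Cars2 (-1.01), Fars2 (-0.85) and Nars2 (-0.84) the latter. In RWV 3 mitochondrial members were called higher, Yars2 (1.22), Hars2 (0.89) and Iars2 (0.57), and none lower. That share, 18.8%, is below the 26.4% of all genes called higher.

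RWV was then compared with TCD. At 4 h, 2 of 35 members were called (5.71%), both higher in RWV, beside 6.17% of all genes, 5.50% higher and 0.668% lower. The members' share is near that of all genes. The cytosolic median difference was 0.36 and the mitochondrial one -0.06; with centring no member was called and the medians were 0.14 and -0.27. One was Rars2, whose values were given above: the RWV arrays at 4 h (-1.19 to -0.64) lie above the TCD arrays (-2.52 to -1.57), by 1.04 ± 0.24 (adjusted p = 0.0241). Without TCD replicate 2 the difference was 0.73 and still called, and the call was lost without RWV replicate 1 (0.99) or 3 (0.92). The other was Gars, 0.56 ± 0.15 higher in RWV (adjusted p = 0.0425), with no overlap between 1.5 to 1.63 in RWV and 0.77 to 1.20 in TCD. That call was lost without TCD replicate 2 (0.44) or 3 (0.58) and without any 1 of RWV replicates 1 (0.56), 2 (0.60) and 3 (0.53). Both the Gars and the Rars2 call were lost with only the arrays compared. That of Gars was also lost with array weights and with trend and robust moderation.

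At 24 h, 5 of 35 members were called (14.3%), beside 15.2% of all genes. This too is near the share of all genes. Of the 5, 4 were higher in RWV and 1 lower, beside 8.36% and 6.86% of all genes. Cars2, for cysteine, read 0, 0.12 and -0.33 in fresh cells, -0.34, -0.83 and -0.38 in TCD and -0.41, -1.0 and -0.97 in RWV at 4 h, -1.35, -1.42 and -1.82 in TCD and -0.82, -0.50 and -0.56 in RWV at 24 h. At 24 h its difference from fresh cells was -1.46 in TCD (adjusted p = 4.70e-05) and -0.56 in RWV (adjusted p = 0.0363), the latter not called without fresh replicate 1 (-0.52) or 2 (-0.46) or RWV replicate 1 (-0.46) or 3 (-0.59). The vessels do not overlap at 24 h. RWV was higher by 0.90 ± 0.20, or 1.87-fold (adjusted p = 0.00944), which stayed called in all 14 alternatives. A further Cars2 probe set gave 1.19. Lars2 also was less reduced in RWV (0.70 ± 0.18, adjusted p = 0.0224). That call was lost without TCD replicate 2 (0.64) or 3 (0.69) or RWV replicate 2 (0.51) or 3 (0.70). Taking the mean of probe sets or fitting only the arrays compared also ended it. The further Lars2 probe set showed no such difference (-0.00).

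Pars2, for proline, was the member lower in RWV. It read -0.01, 0 and 0.01 in fresh cells, -0.50, -0.01 and -0.03 in TCD and -0.09, -0.03 and -0.09 in RWV at 4 h, 0.63, 1.01 and 1.18 in TCD and 0.22, -0.01 and -0.04 in RWV at 24 h. TCD at 24 h is the group that stands apart, at 0.94 ± 0.16 above fresh cells (adjusted p = 1.95e-04; 0.32 and not called with centring), while RWV read 0.06 (adjusted p = 0.781). The difference between vessels was -0.88 ± 0.16 (adjusted p = 0.00217), called in all 14 alternatives. The fresh values of Pars2 hardly vary (SD 0.01, n = 3), and since no level can be read it is not known how near they lie to the background.

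Eprs and Mars, both members of the multisynthetase complex, were higher in RWV at 24 h. Eprs read 0.13, 0 and -0.30 in fresh cells, 0.44, 0.16 and -0.19 in TCD and 0.01, -0.03 and -0.02 in RWV at 4 h, -0.01, -0.33 and -0.53 in TCD and 0.50, 0.20 and 0.16 in RWV at 24 h. The groups at 24 h do not overlap, and the difference was 0.58 ± 0.18 (adjusted p = 0.0476). The call was lost without TCD replicate 2 (0.56) or 3 (0.46) and without any 1 of RWV replicates 1 (0.47), 2 (0.62) and 3 (0.64). Centring, leaving out the background filter and fitting only the arrays compared each ended the call of Eprs too. Of the 4 Eprs probe sets 3 gave 0.51 to 0.58 and the other 0.04. Mars read 0.08, 0 and -0.32 in fresh cells, 0.14, -0.01 and -0.11 in TCD at 4 h, between -0.0044 and 0.33 in RWV at 4 h, 0.23, -0.12 and -0.01 in TCD and 0.50, 0.47 and 0.70 in RWV at 24 h. RWV at 24 h is above all other arrays. The difference was 0.52 ± 0.14 (adjusted p = 0.0241), and it was not called without TCD replicate 2 (0.45) or 3 (0.50) or RWV replicate 3 (0.45). The other 5 measured complex members, Iars, Kars, Lars, Qars and Rars, read -0.22 to 0.26 in this comparison and were not called.

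**Figure D5:**
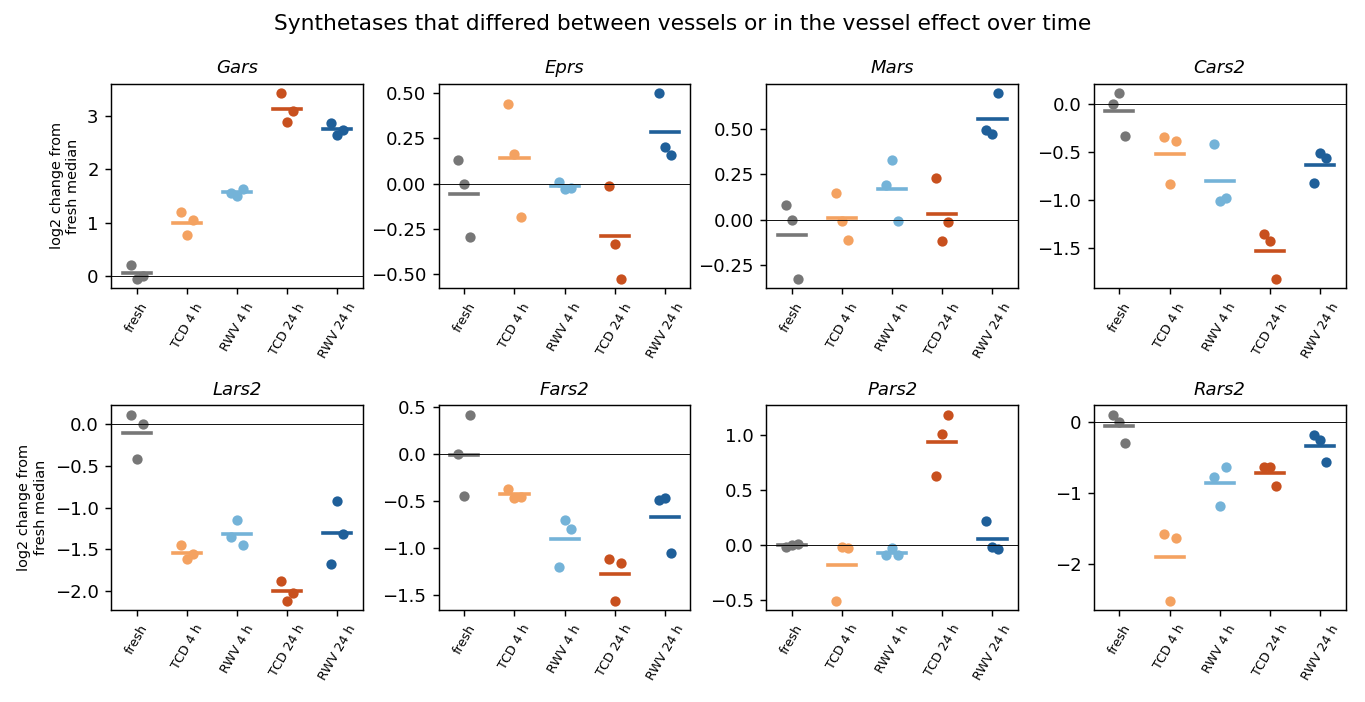
Log2 change from the fresh median on each array (points) and the group mean (bar, 3 arrays) for the 8 synthetases called between vessels at 4 h, at 24 h or in the change of the vessel difference with time; each panel has its own vertical scale. Pars2 leaves the others' range in TCD at 24 h (0.63 to 1.18), and Cars2 at 24 h is lower in TCD (-1.82 to -1.35) than in RWV (-0.82 to -0.50).

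The vessel difference changed between 4 h and 24 h (the interaction of vessel and time) in 4 of 35 members (11.4%), beside 12.7% of all genes, with 2 toward RWV (4.93% of all genes) and 2 toward TCD (7.73%). Gars went from higher in RWV at 4 h (0.56) to lower at 24 h (-0.38, adjusted p = 0.108), a change of -0.95 ± 0.21 (adjusted p = 0.0120). Pars2 changed by -1.0 ± 0.22 (adjusted p = 0.0121), and Cars2 by 1.18 ± 0.28 (adjusted p = 0.0187) with 1.22 at its further probe set. Fars2, for phenylalanine, read 0, -0.45 and 0.42 in fresh cells, -0.37, -0.46 and -0.45 in TCD and -1.20, -0.70 and -0.79 in RWV at 4 h, -1.12, -1.56 and -1.16 in TCD and -0.49, -0.46 and -1.05 in RWV at 24 h. RWV was thus the lower vessel at 4 h and the higher at 24 h, without overlap at either time, though neither difference was called (-0.47 and 0.61). The change was 1.08 ± 0.32 (adjusted p = 0.0475). The call was lost with the replicate number as a block (adjusted p = 0.0618) and with trend and robust moderation (adjusted p = 0.0514). Leaving out any 1 array of the 4 cultured groups except RWV replicate 3 at 24 h ended this call (0.93 to 1.18), while the further Fars2 probe set gave 0.85. The interactions of Gars and Cars2 were called in all 20 alternatives, and that of Pars2 in all but centring.

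Genes that work beside the synthetases were taken from lists. All 3 scaffold proteins of the multisynthetase complex rose at 24 h: Aimp2 by 2.83 in TCD and 2.12 in RWV, Eef1e1 by 1.79 and 1.5, and Aimp1 by 1.34 and 1.28, a median of 1.79 and 1.5, and all 3 stayed called with centring. At 4 h, 1 of 3 in TCD and 2 of 3 in RWV had risen. Of all genes, 9.54% were called higher and 15.9% lower in TCD at 4 h, and 15.1% and 14.4% in RWV. Of 4 tested genes of the other mitochondrial charging routes, none rose and 3 were called lower in each vessel at 4 h, and 2 at 24 h. Gatb and Gatc, subunits of the amidotransferase that makes mitochondrial Gln-tRNA from Glu-tRNA, were the 2 (-1.71 and -0.92 in TCD, -0.99 and -0.68 in RWV). With centring 4 of the 4 in TCD and 2 in RWV were called lower at 24 h. Gatb was higher in RWV than in TCD at 24 h by 0.72 (adjusted p = 0.00332). Of 8 mitochondrial translation factors, 4 were called lower in each vessel at 4 h and 3 at 24 h, led by the initiation factor Mtif3 (-1.72 in TCD, -0.98 in RWV at 24 h); 1 was called higher, Tsfm in RWV at 24 h (0.54, but -0.073 with centring). With centring 6 of the 8 were called lower in each vessel at 24 h and none higher. Of 6 cytosolic elongation factors none was called at 4 h and 3 were called higher at 24 h in both vessels, Eef2 (0.90 and 0.74), Eef1b2 (0.87 and 0.89) and Eif5a (0.62 and 0.53). With centring none of the 6 was called higher and 2 were called lower in each vessel, and Eif5a turned to -0.0023 and -0.081. Of 9 genes of tRNA maturation, export and proofreading, 2 rose and 2 fell in TCD at 24 h and 1 and 2 in RWV. Those shares are near or below the background at 24 h, 32.8% higher and 23.4% lower in TCD and 30.7% and 19.2% in RWV. With centring the counts were 1 higher and 5 lower in TCD and 1 higher and 6 lower in RWV. The centred counts at 24 h in these lists stand beside those of all 12423 genes. These were 2557 higher and 6739 lower in TCD, and 2086 and 6480 in RWV. Xpot, the tRNA exporter, rose by 1.41 and 1.81, and Sepsecs, which makes selenocysteine on its tRNA, fell by 2.66 and 1.67.

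The integrated stress response was followed by its sensors and transcription factors and by its amino acid targets. Of 13 sensors and factors, 7 rose and 2 fell in TCD and 8 rose and 1 fell in RWV at 4 h, and 9 and 2, and 8 and 1, at 24 h. Of all genes, 9.54% were called higher and 15.9% lower in TCD at 4 h, and 15.1% and 14.4% in RWV. The shares at 24 h were 32.8% and 23.4% in TCD and 30.7% and 19.2% in RWV. Atf4 stood at 1.23 in TCD and 1.86 in RWV at 4 h, and at 1.90 and 1.5 at 24 h. Ddit3, the CHOP factor, was highest at 4 h (6.11 and 6.41) and lower by 24 h (2.75 and 2.86). Of 19 amino acid synthesis and transport targets 13 and 14 rose at 4 h and 14 and 14 at 24 h, with 1 to 2 lower. Psat1, of serine synthesis, rose by 7.73 and 8.81 at 4 h and by 9.03 and 8.53 at 24 h. Between vessels at 4 h, 2 of the 13, Atf5 (0.98) and Cebpg (0.84), and 5 of the 19 were higher in RWV and none lower. Of all genes 5.50% were called higher and 0.668% lower in that comparison. The vessel difference of 3 of the 13 and 3 of the 19 changed toward TCD by 24 h, among them Atf4 (-1.03), Cebpg (-0.76), Psat1 (-1.58) and Nupr1 (-5.14), as did that of Gars, and none changed toward RWV. Of all genes 7.73% changed toward TCD and 4.93% toward RWV. With centring, 2 of the 13 and 2 of the 19 were called higher in RWV at 4 h, and 1 of the 13 was called lower. In the change with time, 1 of the 13 (Nupr1) and 1 of the 19 (Psat1) were called with centring. Of all 12423 genes, 364 were called higher and 279 lower in RWV at 4 h with centring. In the change with time 917 went toward RWV and 616 toward TCD. Of 10 interferon-induced genes, 2 rose in TCD and 5 in RWV at 4 h with none lower, and at 24 h 2 rose and 3 fell in TCD and 1 rose and 4 fell in RWV. The TCD counts are near the 32.8% of all genes called higher and 23.4% called lower, beside 30.7% and 19.2% in RWV. With centring 4 in TCD and 6 in RWV were called lower at 24 h. Of all 12423 genes, 6739 in TCD and 6480 in RWV were called lower with centring. Gbp2, a guanylate-binding protein, was the 1 that rose in RWV at 24 h (3.12).

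Markers of cell types moved beside these results. The medians of 8 hepatocyte markers ranged from -0.50 to -0.41 over the TCD arrays and -0.75 to -0.70 over the RWV arrays at 24 h, with 6 and 7 of the 8 called lower than in fresh cells (8 and 8 with centring) and Alb at -0.06 in TCD (adjusted p = 0.498). The medians of 4 tested cholangiocyte markers ranged from 3.69 to 5.4 in TCD and 1.25 to 1.97 in RWV at 24 h, with 4 and 2 called higher. Those of 8 Kupffer cell markers ranged from -0.33 to 0.31 in TCD and from -0.19 to 2.42 in RWV, with 1 and 3 called higher. Of all genes, 32.8% were called higher and 23.4% lower in TCD at 24 h, and 30.7% and 19.2% in RWV. The Kupffer cell counts are near or below those shares. With centring, 6739 of all 12423 genes in TCD and 6480 in RWV were called lower at 24 h. As the values hold no level, absence of a marker cannot be read, and the part of other cells in the synthetase results was not tested; in bulk RNA, fewer cells of a type and less RNA per cell cannot be told apart.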

How the data were processed

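The authors deposited log2 values of 45101 probe sets on 15 arrays, made with GCRMA per the submitters' processing notes (background correction by probe sequence, normalisation between arrays, summary by probe set; version not given in the sources used here). The fresh median is 0 in all 45101 (tolerance 1e-06), so it had been subtracted; that, and log base 2, were read from the values, which run from -11.2 to 13.6, and from GCRMA's scale. The platform annotation, which can be old, gives 34945 probe sets 1 symbol, 932 several and 9160 none; 64 are controls. Only the first were used.

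A probe set was called background where its SD was below 0.5 and it followed, at a correlation above 0.8, the median on each array of the 20% of probe sets with the lowest SD (19608 removed). Each gene took the passing probe set with the largest SD (5611 genes had several). All 15 arrays entered 1 limma 3.58.1 fit (lmFit, contrasts.fit, eBayes without trend or robust; R 4.3.3; 10 residual degrees of freedom), with 9 comparisons and p adjusted by Benjamini-Hochberg over 12423 genes. The fit was tested on simulated data. The number of arrays limits the precision. Errors after ± are SEs of the fit unless SD is named. Promoters were searched with Python 3.11.15. The promoter sequence of 1 further member with a match is not reported here.

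The members, lists and tests were chosen with earlier results of these data known. Values on each array are given for members called between vessels or in the interaction and for the 3 largest called rises and falls against fresh cells in each compartment; no cytosolic fall was called. Of each list up to 4 called members with the largest change could be named. The samples were not treated as paired. Alternatives changed the filter, probe set choice, variance moderation, array weights, centring, arrays fitted and block, and left out each array.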

Additional observations from a re-analysis of the deposited data

Results flagged for a closer look

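In 4 synthetases the difference between RWV and TCD changed between 4 h and 24 h by a test of that change itself (the interaction in the limma fit over 12423 genes). The change was -0.95 ± 0.21 for Gars (adjusted p = 0.0120) and -1.0 ± 0.22 for Pars2 (adjusted p = 0.0121), and it was 1.18 ± 0.28 for Cars2 (adjusted p = 0.0187) and 1.08 ± 0.32 for Fars2 (adjusted p = 0.0475). The 12.7% of all genes called in this comparison exceeds the 11.4% of the members. The call of Fars2 was lost with the replicate block (adjusted p = 0.0618), with trend and robust moderation and without any 1 of 11 arrays. No test for a single outlying value was run in groups of 3 arrays.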

How the results depend on the processing

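The counts of called members changed by over 1.5 times as follows. At 4 h between vessels, 2 became 8 without the background filter, 1 with trend and robust moderation, and 0 with centring or with only the compared arrays. Array weights gave 9 in place of 5 between vessels at 24 h and 7 in place of 4 in the interaction. For TCD at 4 h against fresh cells, 14 became 5 with only the compared arrays. Leaving out probe sets of shared sequence gave 15 in place of 24 for RWV at 24 h and 8 in place of 13 for 24 h against 4 h in RWV, with fewer members tested.

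The set medians that moved by more than the replicate SD did so with centring to 0.14 (cytosolic) and -0.27 (mitochondrial) between vessels at 4 h, -0.42 (mitochondrial) in TCD at 4 h, 0.33 and -0.53 in RWV at 4 h, 0.22 and -0.90 in TCD at 24 h, and 0.51 and -0.70 in RWV at 24 h. With the mean of probe sets they were -0.15 (mitochondrial, TCD at 4 h), 0.56 (cytosolic) and -0.093 (mitochondrial, both TCD at 24 h). Without shared-sequence probe sets they were 0.55 and -0.44 in TCD at 24 h and -0.17 (mitochondrial) in RWV at 24 h, and without the filter the last was -0.22.

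Leaving out 1 array at a time, members called ranged from 0 to 3 between vessels at 4 h, 2 to 5 at 24 h, 3 to 6 in the interaction, 9 to 13 for TCD and 13 to 17 for RWV at 4 h against fresh cells, 21 to 23 and 20 to 23 at 24 h, and 23 to 24 and 11 to 13 for 24 h against 4 h. Cytosolic medians ranged from 0.27 to 0.41 and 0.09 to 0.24 between vessels, 0.26 to 0.51 and 0.49 to 0.85 at 4 h, and 0.70 to 0.97 and 0.88 to 1.32 at 24 h. Mitochondrial medians ranged from -0.10 to 0.028 and 0.12 to 0.17 between vessels, -0.37 to -0.25 and -0.31 to -0.13 at 4 h, and -0.31 to -0.19 and -0.15 to -0.046 at 24 h.

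Called members that changed direction did so with centring (Farsb -0.043, Hars -0.073, Tars -0.074 and Iars2 -0.18 in TCD at 24 h; Aars -0.057 and Tars2 -0.15 in RWV at 24 h) or without shared-sequence probe sets, which leaves another probe set (Wars -0.14 in TCD at 24 h, Qars -0.13 in RWV at 24 h, Farsa -0.17, Qars -0.25 and Wars -0.15 for 24 h against 4 h in TCD, and Qars -0.10 in RWV). Replicate numbers recur in all groups without a stated meaning: 15 of 15 arrays correlated best, after removal of group means, with an array of their own number, but all correlations exceeded 0.1 in only 5 of 10 pairs of groups (0.034 to 0.522). With the replicate block the counts were 3, 7 and 5 in the vessel comparisons and the interaction, 13, 18, 23 and 25 against fresh cells, and 24 and 18 for 24 h against 4 h. The causes of the other changes were not tested.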
